A study of Mus musculus with 12 samples.

Results

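CD30, the receptor by which anaplastic large cell lymphoma is recognized in the clinic, is encoded in the mouse by Tnfrsf8. It was examined together with 6 other receptors of the tumor necrosis factor (TNF) receptor family that T cells carry (Tnfrsf4, Tnfrsf9, Tnfrsf18, Tnfrsf1b, Cd27 and Fas) and with 3 TNF receptor associated factors (Traf1, Traf2 and Traf3). These 10 genes were chosen by name, with no threshold on their values. They are 10 of the 50600 gene IDs counted in each library, all 10 were found by symbol, and all 10 passed the filter on low counts that left 16052 genes to be tested.

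RNA was sequenced from 12 mice, 3 in each of 4 groups, on a mixed C57Bl/6xSV/129 background. Ctrl were thymocytes of Dnmt1 fl/fl mice aged 20 to 25 weeks, for which no Cre is stated. KO were thymocytes of DNMT1 fl/fl CD4-CRE mice aged 20 to 21 weeks, in which Cre driven by Cd4 sequences removes Dnmt1 in T lineage cells. ALK were T cell lymphoma cells of NPM-ALK+ mice aged 22 to 31 weeks, which express the human NPM-ALK fusion kinase under a Cd4 enhancer and promoter. For the ALK mice the labels state no floxed Dnmt1 alleles. ALKKO were thymocytes of NPM-ALK+ mice aged 19 to 25 weeks that also carried DNMT1 fl/fl and CD4-CRE. All mice were male except KO mouse 2, a female. The ALK group differs from the other 3 groups in tissue (tumor against thymus) as well as in genotype, and these cannot be told apart.

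Receptors of the TNF family are surface proteins that bind trimeric ligands on neighbouring cells. CD30, OX40 (Tnfrsf4), 4-1BB (Tnfrsf9), GITR (Tnfrsf18), TNF receptor 2 (Tnfrsf1b) and CD27 have no death domain: their tails recruit TRAF adaptors, which lead to the canonical and the non-canonical NF-kB pathway. Fas does carry a death domain and starts apoptosis through Fadd and Casp8. Traf1 is itself a target of NF-kB, Traf2 carries the signal from most of these receptors, and Traf3 holds the non-canonical kinase NIK (Map3k14) in check. On T cells most of these receptors are raised by activation, and CD30 is found on few normal cells.

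The genes lie together in part. Tnfrsf8 (chr4:145267137-145315164, minus strand, GRCm38) is 20.3 kb from Tnfrsf1b (chr4:145213463-145246870, minus strand). Tnfrsf4 (chr4:156013843-156016612) is 9.55 kb from Tnfrsf18 (chr4:156026164-156028895), both on the plus strand, and Tnfrsf9 (chr4:150914562-150946102, plus strand) is on the same chromosome. The other members are apart from these: Cd27 on chromosome 6, Fas on chromosome 19, Traf1 and Traf2 on chromosome 2 and Traf3 on chromosome 12. On the opposite strand Tnfrsf9 overlaps Camta1, Cd27 overlaps Vamp1, Tnfrsf18 overlaps Gm16008, Traf2 overlaps Gm13433 and Traf3 overlaps 4930595D18Rik. On the same strand Fas overlaps Gm27818 and Cd27 overlaps Mir8113. The libraries were stranded, but the strand setting of the counting is not given in the sources used here, so reads of such partners may be mixed.

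The 3 genes with the largest changes below were Tnfrsf8, Tnfrsf9 and Traf1, and the 250 bases before their RefSeq start sites (GRCm38.p6) are shown because 1 of them moved against the others. They are written 5' to 3' on the strand of the gene. Capitals mark AP-1 sites (TGACTCA on either strand), STAT sites (TTCNNNGAA) and matches to the NF-kB consensus. For Tnfrsf9 the second of 2 annotated starts is given. The windows are Tnfrsf8 at chr4:145315165-145315414 (minus strand), Tnfrsf9 at chr4:150927749-150927998 (plus strand) and Traf1 at chr2:34961773-34962022 (minus strand).
Tnfrsf8: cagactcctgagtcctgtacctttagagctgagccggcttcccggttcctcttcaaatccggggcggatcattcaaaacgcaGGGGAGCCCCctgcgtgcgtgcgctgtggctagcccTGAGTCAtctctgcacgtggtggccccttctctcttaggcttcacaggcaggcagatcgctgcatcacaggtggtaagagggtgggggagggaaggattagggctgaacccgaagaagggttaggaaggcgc
Tnfrsf9: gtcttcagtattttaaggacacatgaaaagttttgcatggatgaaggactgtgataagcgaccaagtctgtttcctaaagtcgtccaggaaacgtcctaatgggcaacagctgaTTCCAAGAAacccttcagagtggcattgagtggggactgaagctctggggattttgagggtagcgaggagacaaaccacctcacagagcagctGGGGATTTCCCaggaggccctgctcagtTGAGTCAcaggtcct
Traf1: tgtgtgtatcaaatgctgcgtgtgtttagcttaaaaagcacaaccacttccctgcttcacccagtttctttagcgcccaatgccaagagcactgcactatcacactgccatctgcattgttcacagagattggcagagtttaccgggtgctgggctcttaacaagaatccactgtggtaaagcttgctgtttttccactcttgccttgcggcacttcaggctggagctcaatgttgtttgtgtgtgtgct
The Tnfrsf8 window held an AP-1 site at -132 to -126 and an NF-kB match at -168 to -159, counted from the start. The Tnfrsf9 window held an AP-1 site at -15 to -9, a STAT site at -136 to -128 and 2 overlapping NF-kB matches between -43 and -33. None of these motifs was found in the window of the first Tnfrsf9 start (chr4:150919905-150920154, not shown), nor in the Traf1 window. Over all 32841 mouse promoter windows of this length, AP-1 sites were in 4.46%, STAT sites in 7.02% and NF-kB matches in 3.90%. Among the 11 windows of the 10 genes, the AP-1 site was also found for Fas, the STAT site for Fas, Tnfrsf18 and Tnfrsf1b, and the NF-kB match for Traf3. CpG dinucleotides, the substrate of DNMT1, numbered 12 in the Tnfrsf8 window, 4 in each of the Tnfrsf9 and Traf1 windows and 49 in that of Traf3, where the median over all promoters was 6. A match of letters is a description and does not show that a factor binds there.

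The libraries held 12473857 to 18864327 reads on genes, so that 3 reads, taken as the floor, amount to 0.159 to 0.241 CPM without TMM factors. All other CPM values are counts scaled to a common library total, with TMM factors. The targeted gene is given first. In normalized CPM, Dnmt1 was 445, 487 and 400.03 in Ctrl mice 1 to 3, 240.4, 206 and 244 in KO, 205, 222 and 244 in ALKKO, and 788, 624 and 379 in ALK, with every KO and ALKKO mouse below every Ctrl and ALK mouse. Set against Ctrl, Dnmt1 had a log2 fold change of -0.95 in KO (SE 0.227, edgeR adjusted p = 0.787) and -0.99 in ALKKO (SE 0.227, edgeR adjusted p = 0.259), neither of which passed the test over all genes, and 12.4% and 17.5% of all genes did not overlap between those groups. The transgene was seen in reads on Alk, at most 0.431 CPM in Ctrl and KO, 34.9 to 54.3 in ALK and 49.0 to 55.0 in ALKKO. The thymocyte list of 10 genes summed to 8145 to 9362 CPM in Ctrl mice against 2009 to 3782 CPM in lymphomas. Rag1 was listed at 0 in all 12 libraries, where another gene overlaps it on the same strand. Members of this list moved unequally: of 9 tested, 5 were called lower in lymphomas and 0 higher. Between Ctrl mice and lymphomas, mean Cd4 went from 1350 to 59.6 CPM and mean Cd8b1 from 1524 to 19.2 CPM. Mean Dntt, the largest member in each lymphoma, was nearly level (1910 and 1867 CPM). Ptcra had a higher mean in lymphomas (200 against 47.6 CPM), with overlap. KO mouse 2 stood apart from the other 8 thymus libraries. In it, the 6 B cell markers summed to 2197 CPM, against 53.3 to 100.5 CPM in the other 8, the 7 myeloid markers to 2264 CPM, against 426 to 650 CPM, and the 6 epithelium markers to 74.3 CPM, against 414 to 674 CPM. Its thymocyte list summed to 3157 CPM. In a bulk sample, fewer cells of a type and less RNA per cell cannot be told apart.

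Tnfrsf8 was low in normal thymus and rose in lymphoma. Its normalized CPM was 11.996, 11.7 and 14.7 in Ctrl and 13.5, 7.06 and 11.1 in KO. It was 35.0, 20.8 and 37.0 in ALKKO and 77.3, 51.3 and 97.4 in ALK. The 4 groups therefore lay in 3 tiers, with Ctrl and KO overlapping, every ALKKO mouse above both, and every ALK mouse above every ALKKO mouse. In the comparison of ALK with Ctrl, Tnfrsf8 was 5.88-fold higher in the edgeR fit, a log2 fold change of 2.56 (SE 0.328, n = 3 per group, adjusted p = 0.000737). This p is from the quasi-likelihood F test of edgeR, adjusted over all 16052 genes by the method of Benjamini and Hochberg. A gene was called when its adjusted p was under 0.05 and its log2 fold change was beyond 1 in either direction. The Tnfrsf8 call held in all 20 alternative fits.

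**Figure D1:**
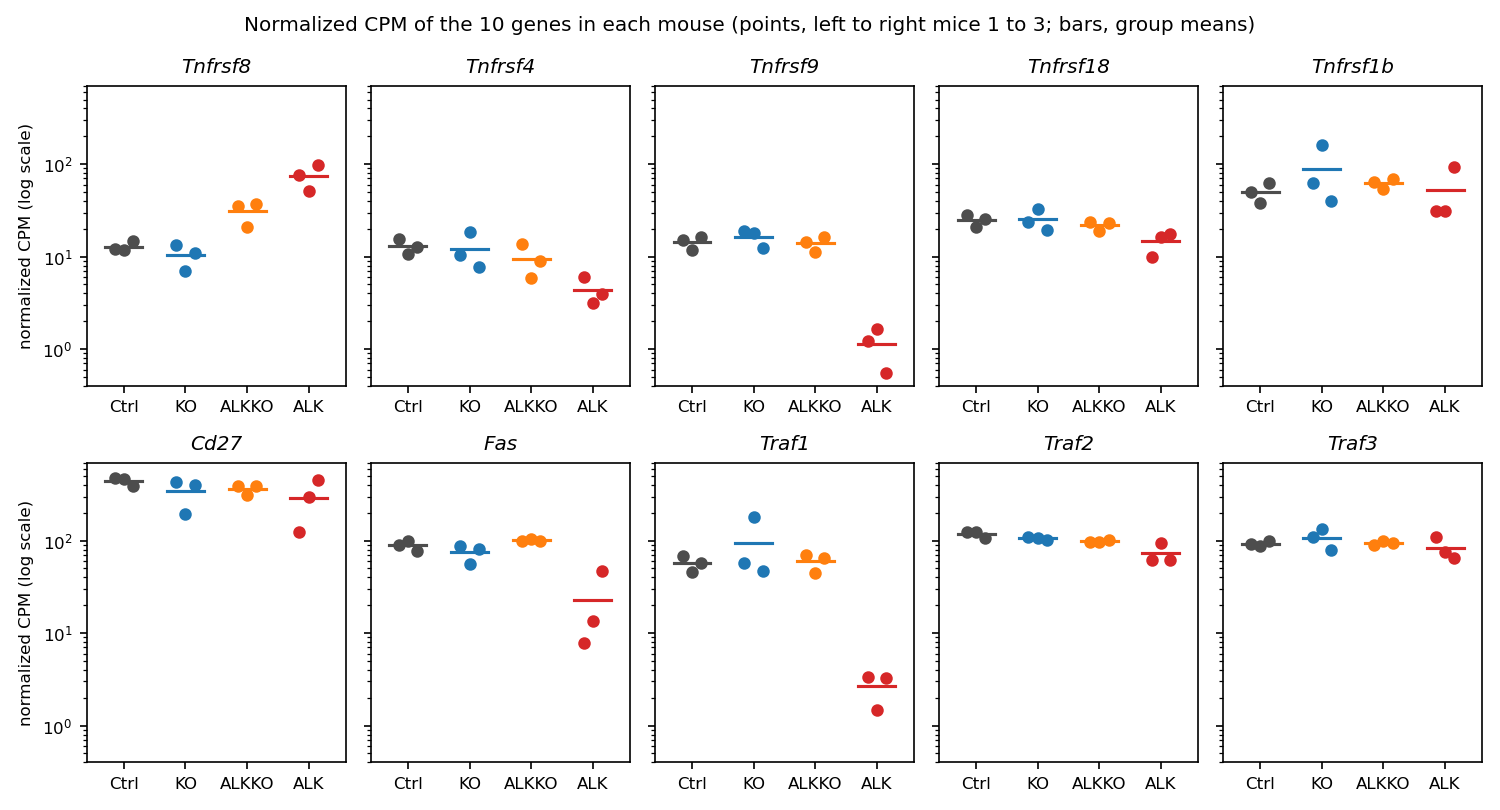
Normalized CPM (log scale, y axis) of the 10 genes in each of the 12 mice (points), grouped on the x axis as Ctrl, KO, ALKKO and ALK, with bars at the group means. Tnfrsf8 is the only panel in which the 3 ALK mice (51.3 to 97.4 CPM) sit above all others, while for Tnfrsf9 and Traf1 they sit far below.

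The middle tier was less certain than the top one. ALK exceeded ALKKO by 2.43-fold for Tnfrsf8 (log2 fold change 1.28, SE 0.314, edgeR adjusted p = 0.0133), a call lost without ALKKO mouse 2 and with age as a covariate (highest edgeR or DESeq2 adjusted p over the alternatives, 0.0549). ALKKO exceeded Ctrl by 2.42-fold (log2 fold change 1.27, SE 0.315), but over all genes the edgeR adjusted p was 0.378, and only DESeq2 called it (adjusted p = 0.0237). Against KO the difference was 1.55 on the log2 scale (SE 0.318, edgeR adjusted p = 0.990, DESeq2 adjusted p = 0.00542). The DESeq2 calls were set beside simulated counts, in which each gene had 1 spread over all 4 groups. In simulated counts with no gene changed in ALKKO, DESeq2 called 39 genes in ALKKO against Ctrl and 23 in ALKKO against KO. In the same counts edgeR called 0 in both. Of 200 genes changed in the simulated ALK libraries, edgeR recovered 61.5% and DESeq2 75.5% in ALK against Ctrl. In the data, library pairs differed more within KO and ALK than within Ctrl and ALKKO. The simulated numbers may therefore not carry over to the calls above. Deletion of Dnmt1 without the transgene left a log2 fold change of -0.28 (SE 0.313, edgeR adjusted p = 0.931). The difference between the transgene's effect in ALK (against Ctrl) and in ALKKO (against KO) was 1.005 on the log2 scale (SE 0.441) and did not pass the test (edgeR adjusted p = 0.170).

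Across the 10 genes, 5 were called in ALK against Ctrl: Tnfrsf8 was higher, and Tnfrsf4, Tnfrsf9, Fas and Traf1 were lower. Of all 16052 genes tested, 20.4% were called in this comparison, 8.41% higher and 12% lower, so changes were common throughout. The median log2 fold change was -0.74 over the 10 genes and 0.05 over all genes. In 7 of the 10 genes the ALK and Ctrl mice did not overlap, where 46.4% of all genes showed no overlap. Without ALK mouse 2 the count of 5 fell to 3, as Tnfrsf4 and Fas were no longer called, and without KO mouse 2 it was 5.

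**Figure D2:**
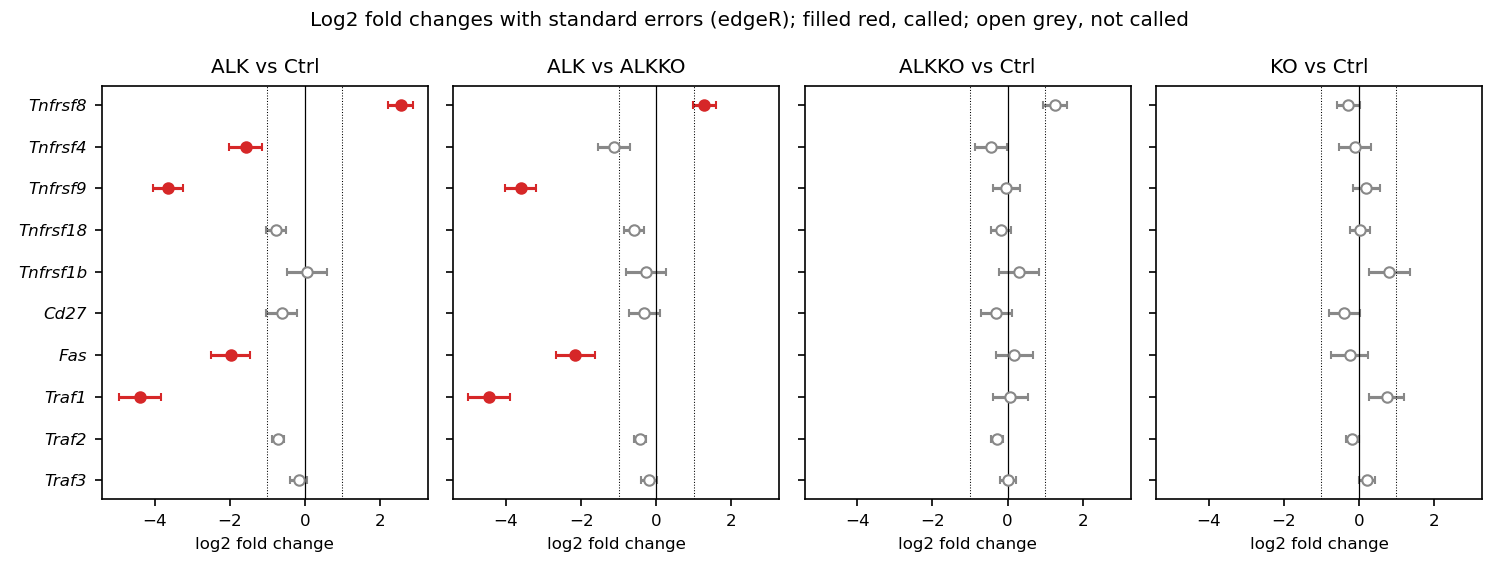
Log2 fold change (x axis) of each of the 10 genes (y axis) in 4 comparisons, with bars of 1 standard error from edgeR; filled red points were called and dotted lines mark a log2 fold change of 1 in either direction. Tnfrsf8 is at 2.56 in ALK against Ctrl while Tnfrsf9 is at -3.64 and Traf1 at -4.38, and no point is filled in ALKKO against Ctrl or in KO against Ctrl.

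Tnfrsf9 encodes 4-1BB, a co-stimulatory receptor of activated T cells. Its normalized CPM was 15.1, 11.7 and 16.1 in Ctrl, 18.9, 17.997 and 12.3 in KO and 14.4, 11.1 and 16.4 in ALKKO. In ALK it was 1.21, 1.66 and 0.547, from 18, 19 and 7 reads. All 9 thymus libraries thus lay in a narrow band and all 3 lymphomas far below it, 12.5-fold below Ctrl in the edgeR fit (log2 fold change -3.64, SE 0.407, edgeR adjusted p = 0.000420). Against ALKKO the log2 fold change was -3.61 (SE 0.406, edgeR adjusted p = 0.000473), and both calls held in the 19 alternative fits that tested the gene. Between ALKKO and Ctrl it was -0.03 (SE 0.356, edgeR adjusted p = 0.9998).

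The 2 receptors next to each other, Tnfrsf4 and Tnfrsf18, were both lowest in lymphoma but by less. Tnfrsf4 encodes OX40, a co-stimulatory receptor of activated and regulatory T cells. Its normalized CPM was 15.5, 10.7 and 12.8 in Ctrl, 10.3, 18.4 and 7.75 in KO, 13.7, 5.86 and 9.07 in ALKKO, and 6.05, 3.14 and 3.91 in ALK. The ALK mice were below every Ctrl mouse but overlapped ALKKO. Against Ctrl Tnfrsf4 fell by 1.57 on the log2 scale (SE 0.435, edgeR adjusted p = 0.0219), a call lost without Ctrl mouse 1, Ctrl mouse 3 or ALK mouse 2 (highest edgeR adjusted p, 0.0749). Against ALKKO the log2 fold change was -1.12 (edgeR adjusted p = 0.0747), which did not pass.

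Tnfrsf18 encodes GITR, which is abundant on regulatory T cells. Normalized CPM was 28.3, 20.8 and 25.4 in Ctrl, 23.9, 32.7 and 19.3 in KO, 23.6, 18.9 and 23.1 in ALKKO, and 10.01, 16.2 and 17.6 in ALK. All 3 ALK mice were below every other mouse, but the log2 fold change of -0.77 against Ctrl did not pass the test (SE 0.269, edgeR adjusted p = 0.0537). The 6 regulatory T cell markers summed to 182 to 199.5 CPM in Ctrl mice against 109 to 181 CPM in lymphomas, and 1 of the 6 was called lower there. Foxp3, which defines these cells, was 3.64 to 6.24 CPM in Ctrl mice against 0.0873 to 0.269 CPM in lymphomas (log2 fold change -4.81, edgeR adjusted p = 0.00680). The lymphoma values rest on 1 to 4 reads per library, near the floor of 3 reads, so the size of the fall is uncertain. The other 5 markers of the list did not pass and differed in direction: in mean CPM of Ctrl and ALK, Il2ra was 59.4 and 52.1, Ikzf2 105 and 41.1, Ikzf4 4.94 and 1.96, Ctla4 9.87 and 29.5, and Lrrc32 6.23 and 13.4. Of these 5, only Ikzf4 did not overlap between Ctrl and ALK. The part of such cells in the values of Tnfrsf4 and Tnfrsf18 was not tested.

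Fas, the death receptor, was lower in lymphoma and variable there. It was at 90.5, 98.1 and 77.7 CPM in Ctrl, 86.5, 56.3 and 81.2 in KO, 98.6, 104 and 99.7 in ALKKO, and 7.73, 13.6 and 46.6 in ALK. No ALK mouse reached the lowest thymus library, but ALK mouse 3 came close to it and lay well above the other 2 lymphomas. Fas fell by 1.97 on the log2 scale against Ctrl (SE 0.515, edgeR adjusted p = 0.0175) and by 2.15 against ALKKO (SE 0.518, edgeR adjusted p = 0.0125). Both calls were lost when only the 2 groups compared were fitted, and the first was also lost without ALK mouse 2 (highest edgeR adjusted p, 0.0709 and 0.0649).

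Tnfrsf1b and Cd27 showed no call in any comparison. Tnfrsf1b encodes the TNF receptor of activated lymphocytes and myeloid cells. Its levels were 50.3, 38.3 and 62.2 CPM in Ctrl, 63.7, 53.8 and 69.9 in ALKKO, and 31.0, 31.4 and 94.3 in ALK. In KO it was 62.1, 163 and 40.4, the highest value being mouse 2, the library rich in B cell and myeloid markers. The log2 fold change of ALK against Ctrl was 0.06 (SE 0.533, edgeR adjusted p = 0.949) and turned to -0.70 without ALK mouse 3. The other tested genes within 100 kb of Tnfrsf8 were not called in this comparison either: Vps13d had a log2 fold change of 0.16 (edgeR adjusted p = 0.489) and Platr16 of 1.22 (edgeR adjusted p = 0.265).

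Cd27, a receptor that most T lineage cells carry, was 479, 469 and 390.2 in Ctrl, 430.4, 194 and 401 in KO, 388.8, 311 and 388.7 in ALKKO, and 125, 296 and 454 in ALK, in normalized CPM. The ALK mice ranged from the lowest value of all 12 to within the Ctrl range. The log2 fold change against Ctrl was -0.61 (SE 0.408, edgeR adjusted p = 0.279).

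Traf1, the adaptor that is induced by NF-kB and binds with Traf2 to the tails of CD30 and 4-1BB, was the most reduced of the 10 genes. Its normalized CPM was 67.9, 45.9 and 57.6 in Ctrl, 57.9, 181 and 47.1 in KO and 70.5, 45.0 and 64.8 in ALKKO. In ALK it was 3.36, 1.48 and 3.28, from 50, 17 and 42 reads. In the edgeR fit the lymphomas were 20.9-fold below Ctrl (log2 fold change -4.38, SE 0.554, edgeR adjusted p = 0.000689) and 22.0-fold below ALKKO (log2 fold change -4.46, SE 0.556, edgeR adjusted p = 0.000736). Both calls held in all 20 alternative fits. In KO the log2 fold change against Ctrl was 0.74 (SE 0.471, edgeR adjusted p = 0.874), and -0.12 without KO mouse 2. That mouse held the highest Traf1 value together with B cell markers at 2197 CPM and myeloid markers at 2264 CPM. In ALK these summed to 5.85 to 16.3 CPM and to 212 to 807 CPM. Their part in the values of Traf1 was not tested.

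Traf2 and Traf3 were not called in any comparison. Traf2 was 125, 125 and 107 CPM in Ctrl, 109, 107 and 102 in KO, 96.0, 97.7 and 101 in ALKKO, and 62.3, 95.0 and 61.3 in ALK. Every ALK mouse was below every other mouse. Against Ctrl the log2 fold change was -0.71 (SE 0.163, edgeR adjusted p = 0.0101), short of the fold needed for a call. Traf3 was 91.6, 87.5 and 99.9 CPM in Ctrl, 109, 135 and 79.9 in KO, 90.6, 98.6 and 93.7 in ALKKO, and 109, 75.3 and 64.4 in ALK. These groups overlapped, and the log2 fold change of ALK against Ctrl was -0.17 (SE 0.215, edgeR adjusted p = 0.587).

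To set the genes beside each other, CPM was divided by the length of the merged exons in kb. On this length-scaled scale Tnfrsf8 had the lowest mean of the 10 in Ctrl (3.70 ± 0.468, SD, n = 3) and in KO (3.04 ± 0.935). It took place 7 in ALKKO (8.95 ± 2.57) and place 2 in ALK (21.8 ± 6.68), behind Cd27 (125 ± 70.6). Cd27 was first in all 4 groups, at 192 ± 20.9 in Ctrl. Fas dropped from place 2 in Ctrl (43.0 ± 4.99) to place 6 in ALK (10.99 ± 10.2), and Traf1 from place 8 (6.48 ± 1.24) to place 10 (0.307 ± 0.120). In the order of ALK means, Tnfrsf8 was followed by Traf2 (14.3 ± 3.75), Tnfrsf1b (13.7 ± 9.54), Traf3 (11.3 ± 3.14), Fas and Tnfrsf18 (9.59 ± 2.65). Neighbours in this order overlapped in their ranges. Tnfrsf4 (3.20 ± 1.10) lay below Tnfrsf18 and above Tnfrsf9 (0.418 ± 0.205) without overlap, and the ranges of Tnfrsf9 and Traf1 overlapped.

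**Figure D3:**
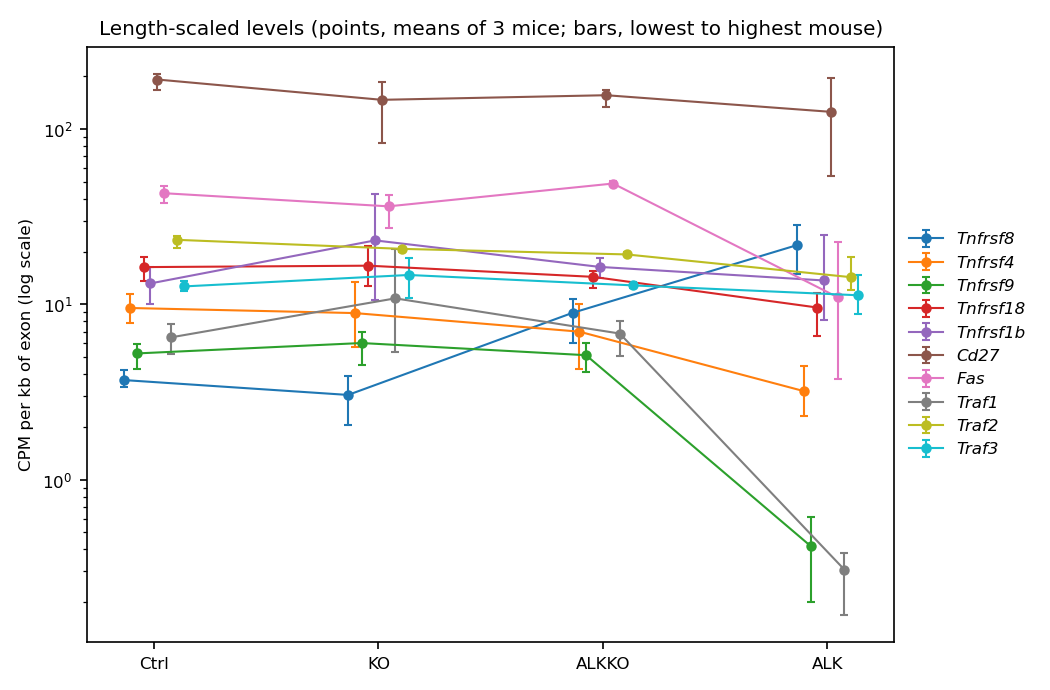
Mean normalized CPM per kb of exon (log scale, y axis) of the 10 genes in the 4 groups (x axis), with bars from the lowest to the highest of 3 mice. The line of Tnfrsf8 climbs from 3.70 in Ctrl to 21.8 in ALK while those of Tnfrsf9 and Traf1 end at 0.418 and 0.307.

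In ALK against ALKKO, 4 of the 10 genes were called, where 19.6% of all genes were, 7.03% higher and 12.6% lower. Tnfrsf8 was higher, and Tnfrsf9, Fas and Traf1 were lower. The median log2 fold change over the 10 genes was -0.51, against 0.03 over all genes, and 6 of the 10 genes did not overlap between the groups (43.2% of all genes). Without KO mouse 2 or ALK mouse 1, which enter the shared estimate of the spread or the comparison itself, Tnfrsf4 was called as well (5 of 10), and without ALKKO mouse 2 Tnfrsf8 was not (3 of 10). The comparison shares its ALK mice with that against Ctrl.

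Among the 3 thymus groups 0 of the 10 genes were called by edgeR. In ALKKO against Ctrl 0.181% of all genes were called (0.174% higher), 1 member (Tnfrsf8) had an unadjusted p under 0.05, and DESeq2 called 1. In KO against Ctrl 0.0187% of all genes were called, with 0 members at an unadjusted p under 0.05 and 0 by DESeq2. In ALKKO against KO it was 0.00623%, with 1 member (Tnfrsf8) at an unadjusted p under 0.05 and 1 called by DESeq2. Without overlap, Tnfrsf8 and Fas were higher and Cd27 and Traf2 lower in ALKKO than in Ctrl, 4 of 10 genes where 17.5% of all genes did not overlap. Against KO, Tnfrsf8 and Fas were higher and Traf2 lower, 3 of 10 where the share of all genes was 6.34%. In KO against Ctrl 0 members were free of overlap (12.4% of all genes).

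The transgene's effect was set against itself with and without Dnmt1, as ALK against Ctrl minus ALKKO against KO. For this difference 8.93% of all genes were called, 3.31% in the positive and 5.62% in the negative direction, and 2 of the 10 genes: Tnfrsf9 (-3.41 on the log2 scale, SE 0.529, edgeR adjusted p = 0.00583) and Traf1 (-3.72, SE 0.702, edgeR adjusted p = 0.0122). Fas, at -2.40 (SE 0.712, edgeR adjusted p = 0.0564), did not pass but was called in 4 of the alternatives, among them those without ALK mouse 1 and without ALK mouse 3. The tissue changes only in the first of these effects.

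Some of the ligands of these receptors were lower in lymphoma and none was called higher. Of 18 TNF family ligands 14 could be tested, and 0 rose and 6 fell between Ctrl and ALK (42.9% called, where 20.4% of all genes were), with a median log2 fold change of -1.57. CD30 ligand (Tnfsf8) was 7.24, 5.04 and 6.74 CPM in Ctrl, 20.3, 15.3 and 16.0 in ALKKO and 1.81, 0.960 and 1.41 in ALK. In KO it was 7.58, 40.8 and 4.58, again highest in mouse 2. Every ALKKO mouse lay above every ALK mouse for this ligand, the reverse of the order for its receptor Tnfrsf8. Tnfsf8 fell by 2.17 on the log2 scale in ALK against Ctrl (SE 0.710, edgeR adjusted p = 0.0419), a call lost with a replicate block, with age as a covariate and without any 1 of the Ctrl, ALK or ALKKO mice (highest edgeR adjusted p, 0.117). Its log2 fold change against ALKKO was -3.61 (SE 0.744, edgeR adjusted p = 0.00634), a call that held in every alternative. The log2 fold change of 1.44 between ALKKO and Ctrl did not pass (SE 0.672, edgeR adjusted p = 0.9998).

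The ligand of 4-1BB, Tnfsf9, was 7.35, 7.24 and 5.66 CPM in Ctrl and 2.08, 2.44 and 3.13 in ALK (log2 fold change -1.40, SE 0.320, edgeR adjusted p = 0.00959). Fas ligand (Fasl), the killing ligand of cytotoxic T cells, had 1, 1 and 0 reads in ALK. From summed reads it was 30.7-fold lower than in Ctrl, with a counting interval of 8.24 to 257 (95%, exact, counting error only). Ltb and Tnfsf14, both ligands of the lymphotoxin beta receptor, fell by 5.18 and 2.56 on the log2 scale (edgeR adjusted p = 0.000496 and 0.00397). Ltb was 134, 111 and 118 CPM in Ctrl and 5.17, 0.873 and 3.83 in ALK. CD40 ligand (Cd40lg) had 0, 0 and 2 reads in ALK and was 157-fold lower than in Ctrl (counting interval 43.3 to 1302).

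Other ligands of the receptors described were not called. The OX40 ligand Tnfsf4 had a log2 fold change of 1.33 (edgeR adjusted p = 0.240), resting on ALK mouse 2 at 3.40 CPM beside 0.470 and 0.235 CPM, and it turned to -0.60 without that mouse. Tnf was 4.598, 4.66 and 4.74 CPM in Ctrl and 3.36, 1.57 and 3.99 in ALK (log2 fold change -0.65, edgeR adjusted p = 0.343). Lta had a log2 fold change of -2.31 (edgeR adjusted p = 0.0598). The GITR ligand Tnfsf18 and the CD27 ligand Cd70 were too low to be tested. Cd70 was listed at 0 in all 3 ALK libraries and was at most 0.742 CPM elsewhere. Tnfsf12 and Tnfsf13 were also not tested: they were listed at 0, and another gene overlaps them on the same strand.

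Of 21 further TNF receptors, all tested, 0 rose and 5 fell in ALK against Ctrl (median log2 fold change -0.56). That is 23.8% called where 20.4% of all genes were, a share near the background. They were Edar, the ectodysplasin receptor of epithelia, Cd40, a receptor of B cells and antigen presenting cells, Tnfrsf25, Ltbr and Tnfrsf1a, the TNF receptor with a death domain. Cd40 was 14.8, 14.8 and 19.6 CPM in Ctrl and 1.21, 1.05 and 1.80 in ALK (log2 fold change -3.59, SE 0.595, edgeR adjusted p = 0.00235). Tnfrsf1a was 130.0, 139 and 148 CPM in Ctrl and 69.9, 35.9 and 64.0 in ALK (log2 fold change -1.30, SE 0.212, edgeR adjusted p = 0.00218). Ltbr fell by 1.37 on the log2 scale (edgeR adjusted p = 0.00429). Tnfrsf25 fell by 2.14 (edgeR adjusted p = 0.0268), a call lost with age as a covariate and without Ctrl mouse 1 or 3 or ALK mouse 2 or 3 (highest edgeR adjusted p, 0.0817). Edar had 3, 1 and 2 reads in ALK and was 31.3-fold lower than in Ctrl (counting interval 14.2 to 85.9). Against ALKKO, 6 of the 21 were lower, where 12.6% of all genes were, among them Tnfrsf14 (log2 fold change -1.13, edgeR adjusted p = 0.00875), whose call was lost without ALK mouse 2, and Tnfrsf17 (-4.78, edgeR adjusted p = 0.0400, at 1, 0 and 0 reads in ALK). The Tnfrsf17 call was lost with a replicate block, with age as a covariate and without any 1 of the Ctrl, ALK or ALKKO mice (highest edgeR adjusted p, 0.108).

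Markers of other cell types moved unequally between Ctrl and ALK. The 6 thymic epithelium markers summed to 588 to 674 CPM in Ctrl mice against 7.59 to 157 CPM in lymphomas, and 4 of 6 were called lower. The B cell markers (1 of 6 called lower) were 53.6 to 96.3 CPM in Ctrl mice against 5.85 to 16.3 CPM in lymphomas. Myeloid markers (1 of 6 tested called lower) were 426 to 520.3 CPM in Ctrl mice against 212 to 807 CPM in lymphomas, a range that spans that of Ctrl (median log2 fold change -0.08), with Itgam listed at 0 in all libraries, where another gene overlaps it on the same strand. The 5 natural killer cell markers (3 called lower) summed to 25.7 to 36.1 CPM in Ctrl mice against 0.605 to 31.3 CPM in lymphomas. These ranges overlap through Nkg7, at 16.4 to 17.5 CPM in Ctrl mice against 0.202, 30.6 and 24.7 CPM in lymphomas. Klrb1c, Klrk1, Eomes and Ncr1 were each lower in every lymphoma than in every Ctrl mouse. Mean Klrb1c went from 5.49 to 0.187 CPM and mean Klrk1 from 6.03 to 0.386 CPM. Ncr1 had only 3 to 4 reads per Ctrl library. The 6 markers of stroma and vessels (1 called higher) were 206 to 287 CPM in Ctrl mice against 554 to 912 CPM in lymphomas. That rise lay in Col1a1, with means of 23.1 CPM in Ctrl mice and 442 CPM in lymphomas. The other 5 summed to 192 to 258 CPM in Ctrl mice against 194 to 311 CPM in lymphomas, which overlap. Their part in the lower levels of receptors and ligands was not tested.

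**Figure D4:**
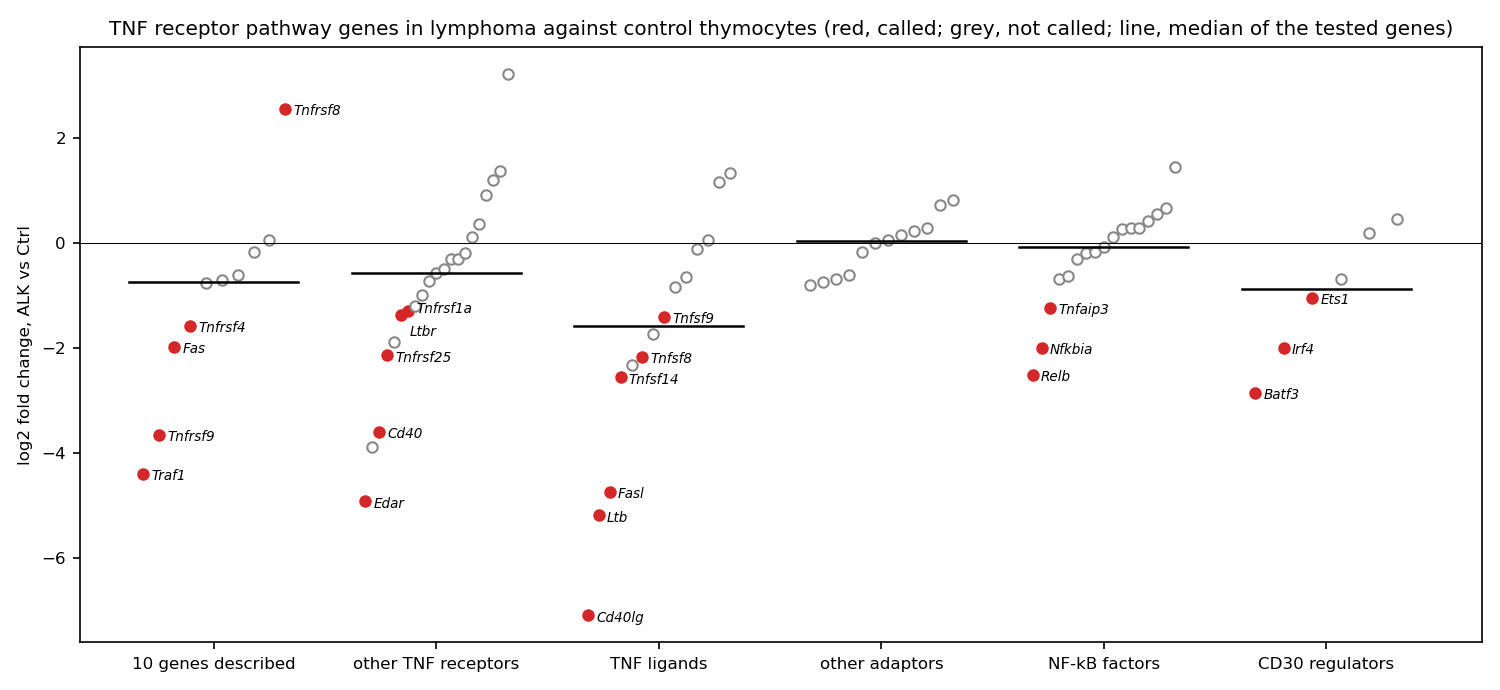
Log2 fold change of ALK against Ctrl (y axis) for every tested gene of 6 lists (x axis): the 10 genes described, other TNF receptors, TNF ligands, other adaptors, NF-kB factors and regulators of CD30; red points were called by edgeR and lines are list medians. Tnfrsf8 at 2.56 is the only red point above 0, and the medians run from -1.57 for ligands to 0.03 for the other adaptors.

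Of the 12 other adaptors, which link the receptors to NF-kB or to caspases, 0 were called by edgeR in ALK against Ctrl (median log2 fold change 0.03), with 4 at an unadjusted p under 0.05 and 0 called by DESeq2. Fadd and Casp8, which act below Fas, had log2 fold changes of 0.72 and 0.82 (edgeR adjusted p = 0.0182 and 0.00880), and Birc2, a ubiquitin ligase that works with Traf2, of -0.61 (edgeR adjusted p = 0.0155). All 3 stayed under the fold needed for a call. Birc3, its NF-kB inducible relative, was 70.7, 62.7 and 83.0 CPM in Ctrl and 21.7, 41.1 and 60.9 in ALK, a log2 fold change of -0.81 that did not pass (edgeR adjusted p = 0.171).

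Among 17 NF-kB pathway genes 0 rose and 3 fell in ALK against Ctrl, or 17.6% called where 20.4% of all genes were, so the share is near the background. Their median log2 fold change was -0.07. The 3 were Relb, the partner of the non-canonical subunit, and the feedback inhibitors Nfkbia and Tnfaip3. Relb was 49.3, 36.7 and 43.6 CPM in Ctrl and 7.12, 5.94 and 9.62 in ALK (log2 fold change -2.51, SE 0.462, edgeR adjusted p = 0.00357). Nfkbia was 277, 278 and 223 CPM in Ctrl, 287, 291 and 236 in ALKKO and 56.6, 56.8 and 81.0 in ALK (log2 fold change against Ctrl -1.999, SE 0.190, edgeR adjusted p = 0.000201). Tnfaip3 fell by 1.24 on the log2 scale (SE 0.211, edgeR adjusted p = 0.00257). The ALK and Ctrl mice did not overlap for any of these 3 genes.

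The rest of the non-canonical branch was not called. The kinase Map3k14 had a log2 fold change of -0.63 (edgeR adjusted p = 0.0556). Nfkb2, which acts below this kinase, was 79.4, 65.1 and 75.6 CPM in Ctrl and 165, 57.8 and 43.7 in ALK, a log2 fold change of 0.27 (edgeR adjusted p = 0.724) that turned to -0.53 without ALK mouse 1. Bcl3, a nuclear partner of NF-kB, was chosen for mention after its values were seen. It was 17.9, 15.1 and 18.6 CPM in Ctrl, 14.6, 63.5 and 8.76 in KO, 80.2, 89.7 and 84.3 in ALKKO, and 5.51, 23.8 and 112 in ALK. The ALKKO mice were alike and above all Ctrl mice, yet the log2 fold change of 2.30 did not pass (SE 0.945, edgeR adjusted p = 0.9998), in a fit that estimates 1 spread over all 4 groups.

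Of 6 transcription factors linked to CD30 or to CD30 positive lymphoma, 0 were called higher and 3 lower in ALK against Ctrl (50% called). The median log2 fold change was -0.87, and of all genes 20.4% were called and 12% were lower. Batf3 was 6.98, 5.25 and 5.07 CPM in Ctrl and 0.537, 0.349 and 1.49 in ALK (log2 fold change -2.85, SE 0.700, edgeR adjusted p = 0.0133). Irf4 was 25.4, 19.5 and 23.1 CPM in Ctrl and 5.31, 7.94 and 3.75 in ALK (log2 fold change -1.998, SE 0.666, edgeR adjusted p = 0.0450), a call lost with no filter on low counts, with age as a covariate and without any 1 of the Ctrl, ALK or ALKKO mice (highest edgeR adjusted p, 0.106). Ets1 was 1642, 1646 and 1609 CPM in Ctrl and 666, 837 and 877 in ALK (log2 fold change -1.04, SE 0.192, edgeR adjusted p = 0.00352), and slipped under the fold needed without ALK mouse 1. Junb, the AP-1 subunit, was 58.6, 44.6 and 47.7 CPM in Ctrl and 20.2, 20.9 and 52.4 in ALK, which overlapped (log2 fold change -0.69, edgeR adjusted p = 0.179). Jun and Batf were not called either, and their means were higher in ALK than in Ctrl. Jun averaged 21.7 CPM in Ctrl and 29.8 in ALK, and Batf 8.97 and 10.3, with overlap between the groups for both.

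The genes whose levels ran most like Tnfrsf8 over the 12 libraries were sought among 14609 genes averaging 1 CPM or more, by Pearson's r of log2(CPM + 0.5). They were Kdsr (0.959), Iqck (0.958), Gpr179 (0.946), Pate2 (0.934) and Hmgxb4 (0.934), all on other chromosomes than Tnfrsf8. No other member was among them: r of Tnfrsf8 was -0.83 with Tnfrsf9, -0.82 with Traf1 and -0.24 with Tnfrsf1b. For Traf1 they were Ifit1 (0.996), H2-Ab1 (0.994), Ltb (0.990), Car2 (0.990) and Il2rb (0.989). These values describe 12 libraries in 4 groups, of which the lymphomas lie far from the rest.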

How the data were processed

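RNA-seq was performed on 12 mice. Per the study's methods, tissue was homogenized, and stranded poly(A) libraries were sequenced as 50-nt single-end reads. The authors trimmed the reads with Trim Galore, aligned them to mm10 with STAR and counted them per gene with HTSeq, and the deposited values are these raw counts. The versions, annotation release and strand setting are not given in the sources used here. Reads on no gene, not uniquely placed ones included, stayed out of library sizes. They were 51.9 to 55.3% of reads in the 3 ALK libraries and 43.8 to 50.1% in the 9 thymus libraries, and the part of this difference in the results was not tested.

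Of 50600 IDs, 50376 were matched to GENCODE M21 (GRCm38), from which symbols, positions and exon lengths were taken. Genes were filtered with filterByExpr and normalized with TMM. All 12 libraries were fitted with 1 term per group by glmQLFit and glmQLFTest in edgeR 4.0.16 (R 4.3.3), which was also tested on simulated data. Adjusted p-values are over all 16052 genes tested, and a standard error is the log2 fold change divided by the square root of F. P-values measure the spread between mice, 3 per group. Library pairs of a group differed beyond sampling noise. DESeq2 1.42.0 and other settings served as alternatives. Promoters were RefSeq windows (GRCm38.p6).

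The 10 genes, the pathway and marker lists and the comparisons were chosen with earlier results of these data known. Named were the 10 genes, the ligands of the 7 receptors, 4 non-canonical NF-kB genes, up to 4 called genes per list with the largest change in ALK against Ctrl and a mean of at least 1 CPM, any gene of these lists called in another comparison, and the 5 genes most like Tnfrsf8 and Traf1. Fadd, Casp8, Birc2, Bcl3, Junb, Jun and Batf were named outside this rule, as were the neighbours of Tnfrsf8 and single marker genes.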

Additional observations from a re-analysis of the deposited data

Results flagged for a closer look

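For 10 genes of the member and pathway lists the effect of the transgene in the presence of Dnmt1 (ALK against Ctrl) differed from that in its absence (ALKKO against KO) by the test of the difference itself (edgeR, adjusted over all genes, n = 3 mice per group). They were 2 of the 10 genes described, 3 of 14 tested ligands, 2 of 21 other receptors, 2 of 17 NF-kB genes and 1 of 6 regulators of CD30. Of the 12 other adaptors 0 were called. Of all 16052 genes tested, 8.93% were called for this difference, so such calls were common. The marker lists of cell types were left out. The first effect is between tumor and thymus and the second within thymus, so tissue and the presence of Dnmt1 cannot be told apart. Values are log2 differences.

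Among the 10 genes described, Tnfrsf9 was flagged at -3.41 (adjusted p = 0.00583), from effects of -3.64 and -0.23, and Traf1 at -3.72 (adjusted p = 0.0122), from effects of -4.38 and -0.67. Both remained called in every alternative that tested them. Among the ligands, Ltb was at -4.57 (adjusted p = 0.00734), Tnfsf14 at -2.51 (adjusted p = 0.0373) and Cd40lg at -6.49 (adjusted p = 0.00482), the last with 2 reads in all in ALK. Among the other receptors, Tnfrsf1a was at -1.35 (adjusted p = 0.0212) and Edar at -5.17 (adjusted p = 0.0273). The NF-kB inhibitors Nfkbia and Tnfaip3 were at -2.18 (adjusted p = 0.00187) and -1.38 (adjusted p = 0.0192), and the transcription factor Ets1 was at -1.07 (adjusted p = 0.0339). The calls of Edar, Tnfsf14 and Ets1 were each lost without at least 3 of the single libraries (highest adjusted p, 0.0643, 0.0928 and 0.0820), that of Tnfrsf1a without Ctrl mouse 3 or ALKKO mouse 3 (0.0539) and that of Tnfaip3 without Ctrl mouse 1 (0.0560).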

How the results depend on the processing

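Leaving out 1 library at a time gave 3 to 5 called members in ALK against Ctrl (3 without ALK mouse 2), 3 to 5 in ALK against ALKKO, 0 in each comparison within thymus, and 2 to 3 for the difference of transgene effects. DESeq2 called 1 member each in ALKKO against Ctrl and ALKKO against KO, Tnfrsf8 in both. With at least 10 counts required in every library, Tnfrsf9 was not tested and the difference of transgene effects kept 1 called member.

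Of the 60 log2 values of the 10 genes in 6 comparisons, 16 took both signs over the alternatives, none of them a called value. Among them were Tnfrsf9 in ALKKO against Ctrl (-0.17 to 0.10), Tnfrsf1b in ALK against Ctrl (-0.028 with the 10-count filter, -0.024 with the replicate block, -0.47 with age as a covariate, and -0.70 to 0.32 leaving out single libraries) and Traf1 in KO against Ctrl (-0.12 with sex as a covariate, -0.12 to 1.05 leaving out single libraries). Likewise Tnfsf4 ran from -0.60 to 1.82 in ALK against Ctrl and from -1.49 to 0.92 against ALKKO (-0.088 with the replicate block), Nfkb2 from -0.53 to 0.59 and from -0.60 to 0.50, and Bcl3 in ALK against Ctrl from -0.25 to 1.98. The single libraries behind these were ALK mouse 3 for Tnfrsf1b and Bcl3, KO mouse 2 for Traf1, ALK mouse 2 for Tnfsf4 and ALK mouse 1 for Nfkb2. KO mouse 2 is the only female, so sex as a covariate sets that library apart much as leaving it out does.

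Counts over all genes moved more. In ALK against Ctrl 3281 genes were called, 2130 to 3787 leaving out single libraries, 1756 with the 10-count filter and 3969 by DESeq2. For ALK against ALKKO these were 3145, 2251 to 3719, 1531 and 3843, and 2049 when only the 2 groups were fitted. For the difference they were 1433, 560 to 2219, 667 and 2486. In ALKKO against Ctrl 29 genes were called, 5 to 34 leaving out single libraries, 98 by DESeq2, 9 with age as a covariate and 5 with the replicate block. When only these 2 groups were fitted, edgeR called 98 genes as well, with 0 members among them. In KO against Ctrl DESeq2 called 42 genes where edgeR called 3, and in ALKKO against KO 24 where edgeR called 1. The replicate numbers gave no clear sign of paired mice: correlations of deviations over 18 same-numbered pairs were -0.130 to 0.440, 5 of them over 0.1, and 5 of 12 libraries correlated best with their own number. With deviations taken from means of 3 mice, this check cannot exclude pairing. The replicate block left 5, 4 and 2 members called in ALK against Ctrl, ALK against ALKKO and the difference. The cause of these shifts was not tested.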
